A study of Homo sapiens with 6 samples.

Results

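The 5 genes that encode the NF-kB subunits (NFKB1, NFKB2, REL, RELA and RELB) and 5 genes that encode inhibitors of the pathway (NFKBIA, NFKBIB, NFKBIE, NFKBIZ and TNFAIP3) were described in HK-2 cells overexpressing hnRNP-F. They were taken by symbol from the deposited count table, in which all 10 of them were found among 31831 genes. HK-2 is an established line of human renal proximal tubular epithelial cells. High glucose (30 mM, 72 h) was applied to all cells, which carried either a control lentiviral vector (HG-NC, a control plasmid in the sample labels) or a lentiviral vector that overexpresses hnRNP-F, an RNA-binding splicing factor (HG-OE). For each group, 3 poly(A) RNA-seq libraries were available, and the study describes them as biological replicates. Whether the wells of a group came from separate transductions is not given, so that a difference between the vectors and a difference between 2 transduced populations cannot be told apart.

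The libraries held 25507595 to 29444841 counted fragments. HNRNPF, the overexpressed gene, reached 435 ± 14.9 CPM (counts scaled to the same library size) in HG-OE against 311 ± 7.23 in HG-NC (mean ± SD, n = 3), 1.398 times the HG-NC level. Of 11 marker genes of the proximal tubule, 7 passed the low-count filter. PAX8, a transcription factor of the tubule lineage, was well expressed, with 77.4 ± 3.81 FPKM in HG-NC, and fell to 53.7 ± 4.10 FPKM in HG-OE (log2 fold change -0.51, adjusted p = 3.04e-06, edgeR), whereas LRP2 and AQP1, which mark the differentiated proximal tubule, had means of 2.83 and 3.17 counts per library and SLC22A6 had no row in the table. HG-OE replicate 3 stood apart from the other libraries. It held 4359 counts of the liver gene ALB, against 78 in HG-NC replicate 3 and 0 to 4 in the other libraries. Summed over 6 epithelial markers, it had 1825 CPM against 1182 and 1206 in the other HG-OE libraries and 882 to 902 in HG-NC. KRT8 and KRT18 contributed the most to this sum, with 28781 and 14286 counts in HG-OE replicate 3. The 5 epithelial markers that passed the low-count filter moved both ways between the groups. Log2 fold changes were 1.35, 0.76 and 0.38 for KRT8, KRT18 and KRT7, but -0.55 and -0.56 for KRT19 and EPCAM. Values without HG-OE replicate 3 are given for the 10 genes, their sums and ratios, and the medians of the pathway lists.

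NF-kB is a dimeric transcription factor built from members of the Rel family. RELA (p65), RELB and REL carry a transactivation domain, whereas NFKB1 and NFKB2 encode the precursors p105 and p100, which are processed to the DNA-binding partners p50 and p52 and which, unprocessed, also hold dimers in the cytoplasm. The classical inhibitors IkB-alpha (NFKBIA), IkB-beta (NFKBIB) and IkB-epsilon (NFKBIE) bind dimers in the cytoplasm until the IKK kinase complex marks them for degradation. IkB-zeta (NFKBIZ) acts in the nucleus as a cofactor of p50 and can activate as well as repress, and A20 (TNFAIP3) is a ubiquitin-editing enzyme that switches off signaling upstream of IKK. Several of these genes are themselves transcribed under the control of NF-kB, and such feedback is a well-known feature of the pathway.

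NF-kB binds decameric DNA elements known as kB sites. The promoter windows of RefSeq (GRCh38.p14, 250 bases before to 50 bases after a gene's start) hold 8 of the 10 genes, and were searched for GGGNNNTTCC on either strand, which reads as GGAANNNCCC on the opposite strand. No other motif was searched, and this one was chosen after the windows of NFKB1, REL and TNFAIP3 had been read. At least 1 match was found for 7 of the 8 genes, against 7.83% of the 27305 genes that have a window. By window, 8 of 14 windows of these genes held a match, against 6.52% of all 35116 windows. Both counts include NFKB1, REL and TNFAIP3, whose windows had been read before the motif was chosen, and are not independent of that choice. The matches in 7 of the genes are shown because the letters searched are a form of the kB element. Each line gives the strand of the gene from 5′ to 3′, with the match in capitals.
NFKB1 (chr4:102501300-102501329, plus strand): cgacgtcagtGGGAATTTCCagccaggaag
NFKB2 (chr10:102394462-102394491, plus strand): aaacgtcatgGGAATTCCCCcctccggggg
NFKB2 (chr10:102394490-102394519, plus strand): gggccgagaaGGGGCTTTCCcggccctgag
NFKB2 (chr10:102395674-102395703, plus strand): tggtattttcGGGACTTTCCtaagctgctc
REL (chr2:60881517-60881546, plus strand): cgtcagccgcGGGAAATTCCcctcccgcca
NFKBIA (chr14:35404811-35404840, minus strand): tgactggcttGGAAATTCCCcgagcctgac
NFKBIB (chr19:38899931-38899960, plus strand): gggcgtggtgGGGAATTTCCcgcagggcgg
NFKBIZ (chr3:101827757-101827786, plus strand): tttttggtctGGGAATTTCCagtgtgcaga
TNFAIP3 (chr6:137867182-137867211, plus strand): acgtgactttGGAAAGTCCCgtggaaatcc
TNFAIP3 (chr6:137867194-137867223, plus strand): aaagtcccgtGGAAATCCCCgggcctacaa
In REL and NFKBIB the same element also matched on the opposite strand, shifted by 1 base. Neither of the 2 windows of RELA held these letters. RELB and NFKBIE had no entry in the table. A match is a run of letters and not a measured binding site, and no match in RELA says only that these letters are not in its windows.

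To ask which NF-kB genes differ when hnRNP-F is overexpressed, counts of HG-OE were compared with those of HG-NC by the quasi-likelihood test of edgeR, and p-values were adjusted over 17142 genes (Benjamini-Hochberg). At an adjusted p under 0.05, expression was lower in HG-OE for 9 of the 10 genes, and the exception was RELA. All 5 inhibitors and 4 of the 5 subunits fell. Across all genes tested, 51.8% passed this threshold, 25.9% being lower and 25.9% higher, and among genes with a mean of at least 100 counts, as all 10 have, 32.2% were lower. None of the 10 genes passed the additional threshold of a 2-fold change that the study used for differentially expressed genes, which 5.82% of all genes did, 2.13% being lower. The count at 2-fold was also 0 with an unadjusted p under 0.05 and with DESeq2 or limma. The median log2 fold change was -0.69 for the subunits and -0.46 for the inhibitors, against 0.011 for all genes tested. In the 9 genes that fell, every HG-OE library lay below every HG-NC library in CPM, and this held for 29.4% of all genes tested. RELA was higher in every HG-OE library in CPM, so that none of the 10 genes overlapped between groups, as in 59.0% of all genes in either direction. NFKB1, REL, RELB and NFKBIB, 4 of the 10, were lower by at least 1.5-fold, as were 6.74% of all genes. Since these are bulk libraries, fewer expressing cells and less RNA per cell cannot be told apart. Values below are FPKM as the authors deposited them, which scale fragments by gene length and library size, so that genes can be compared per length, and log2 fold changes are from the counts.

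NFKB1 (ENSG00000109320.13, GRCh38 chromosome 4, 102501330 to 102617302) had 15.17, 15.97 and 16.08 FPKM in the HG-NC libraries (replicates 1, 2 and 3, as for all values below) and 8.23, 8.01 and 7.44 in HG-OE. The groups were far apart, and the gene fell to 50.7% of its HG-NC level, the largest decrease of the 10. Its change on the log2 scale was -0.98 (standard error 0.0475, adjusted p = 3.25e-09, edgeR). REL (ENSG00000162924.15, chromosome 2, 60881491 to 60931612), which encodes c-Rel and is best known from lymphoid cells, was the least expressed subunit, with 1.03, 0.99 and 0.93 FPKM in HG-NC and 0.50, 0.54 and 0.50 in HG-OE. It fell to 52.7% of its HG-NC level (log2 fold change -0.92, standard error 0.0925, adjusted p = 2.16e-06, edgeR), on counts of 382 to 397 in HG-NC and 215 to 237 in HG-OE. RELB (ENSG00000104856.14, chromosome 19, 45001461 to 45038192), the transactivating partner of p52 in the non-canonical pathway, had 14.33, 13.99 and 14.14 FPKM in HG-NC and 9.59, 8.97 and 7.42 in HG-OE. It fell by 0.69 on the log2 scale (standard error 0.0757, adjusted p = 4.76e-06, edgeR), and HG-OE replicate 3 was the lowest library.

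NFKB2 (ENSG00000077150.20, chromosome 10, 102394110 to 102402524), the source of p52, was the most expressed subunit per length, with 26.58, 29.12 and 27.83 FPKM in HG-NC and 22.17, 22.03 and 18.76 in HG-OE. Its decrease was the smallest among the 4 subunits that fell (log2 fold change -0.39, standard error 0.0597, adjusted p = 9.32e-05, edgeR). RELA (ENSG00000173039.19, chromosome 11, 65653599 to 65663090), the subunit whose phosphorylated protein is commonly read as a sign of active NF-kB, had 12.62, 13.40 and 13.37 FPKM in HG-NC and 13.95, 13.90 and 13.33 in HG-OE. In FPKM the groups overlapped, because HG-OE replicate 3 lay within the HG-NC range, whereas in CPM all 3 HG-OE libraries lay slightly above HG-NC. The log2 fold change of RELA was 0.080 with a 95% interval from -0.014 to 0.17 (adjusted p = 0.142, edgeR), and the interval holds the point estimate of none of the other 9 genes.

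**Figure D1:**
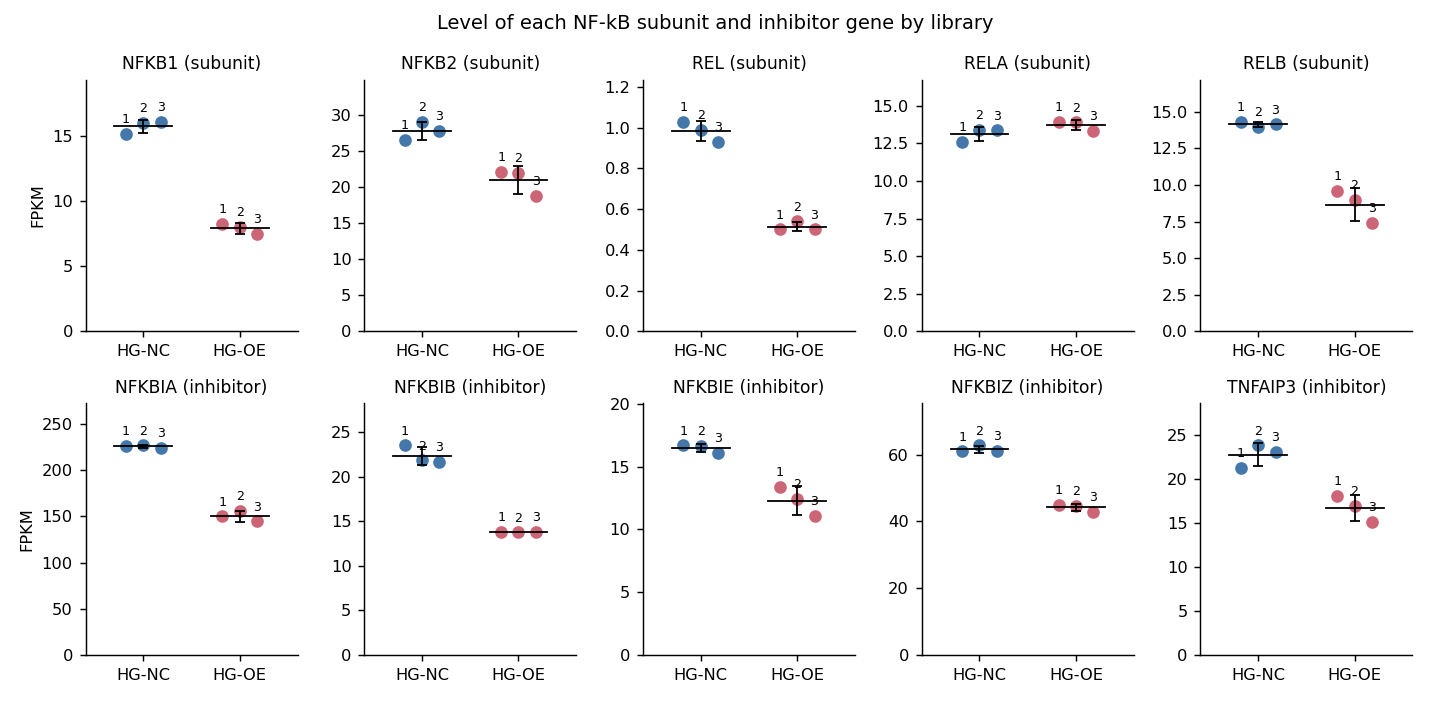
FPKM of each of the 10 genes in the 3 HG-NC (blue) and 3 HG-OE (red) libraries, numbered by replicate, with the mean (line) and SD (bar); each panel has its own axis from 0. In 9 panels the red points lie below all blue points, and in the panel of RELA the groups overlap between 13.33 and 13.40 FPKM.

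NFKBIA (ENSG00000100906.11, chromosome 14, 35401079 to 35404749) had by far the highest level of the 10 genes per length, with 226.37, 226.83 and 224.31 FPKM in HG-NC and 149.99, 156.18 and 144.45 in HG-OE. The gap between the groups was many times the spread within them, and the gene fell to 67.2% of its HG-NC level (log2 fold change -0.57, standard error 0.0386, adjusted p = 6.25e-08, edgeR). NFKBIB (ENSG00000104825.17, chromosome 19, 38899700 to 38908893) had 23.51, 21.81 and 21.65 FPKM in HG-NC and 13.78, 13.74 and 13.83 in HG-OE. It showed the largest decrease among the inhibitors (log2 fold change -0.68, standard error 0.0519, adjusted p = 1.83e-07, edgeR), and its HG-OE libraries were nearly equal. NFKBIE (ENSG00000146232.17, chromosome 6, 44258166 to 44265788) had 16.69, 16.66 and 16.09 FPKM in HG-NC and 13.41, 12.40 and 11.08 in HG-OE. Its change on the log2 scale was -0.41 (standard error 0.0644, adjusted p = 1.29e-04, edgeR).

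NFKBIZ (ENSG00000144802.11, chromosome 3, 101827991 to 101861022), the nuclear member, was the second most expressed gene, with 60.95, 62.79 and 61.04 FPKM in HG-NC and 45.04, 44.66 and 42.91 in HG-OE. It fell to 72.6% of its HG-NC level (log2 fold change -0.46, standard error 0.0369, adjusted p = 2.67e-07, edgeR). TNFAIP3 (ENSG00000118503.15, chromosome 6, 137867214 to 137883314), a classical early target of NF-kB, had 21.24, 23.77 and 23.03 FPKM in HG-NC and 18.07, 16.88 and 15.06 in HG-OE. Its change on the log2 scale was -0.43 (standard error 0.0607, adjusted p = 4.97e-05, edgeR). Some of these counts may include reads of overlapping genes, since the counting rule is not given. NFKBIZ shares 15753 bases of its locus, on the same strand, with NXPE3, which had 9471 counts over all libraries against 58462 for NFKBIZ. NFKBIB shares 163 bases with SIRT2 on the opposite strand, and SIRT2 had 3635 counts over all libraries against 7823 for NFKBIB. TNFAIP3 shares 1020 bases with WAKMAR2, a lncRNA that had 216 counts over all libraries. RELA shares 103 bases with RELA-DT on the opposite strand, which had 409 counts against 13853 for RELA.

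The order of the genes by FPKM was read in each group. In HG-NC, NFKBIA and NFKBIZ were followed by NFKB2, TNFAIP3, NFKBIB, NFKBIE, NFKB1, RELB, RELA and REL. Of these neighbours, only TNFAIP3 and NFKBIB overlapped in their range over libraries. In HG-OE, RELA stood 3 places higher, at rank 6 with 13.7 ± 0.344 FPKM (mean ± SD, n = 3), where it overlapped with NFKBIB above it and with NFKBIE below it. NFKB1 stood at rank 9 with 7.89 ± 0.408 FPKM, next to RELB, with which it overlapped. The share of RELA in the summed FPKM of the 5 subunits was 18.3% ± 0.193 in HG-NC and 26.6% ± 1.33 in HG-OE, and that of NFKB1 was 21.9% ± 0.277 and 15.3% ± 0.368. The summed FPKM of the subunits thus held more RELA than NFKB1 in HG-OE and less in HG-NC. Without HG-OE replicate 3 the HG-OE shares were 25.8% for RELA and 15.1% for NFKB1.

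To compare subunits with inhibitors, FPKM values were summed over the 5 genes of each kind. The subunits summed to 71.85 ± 1.92 FPKM in HG-NC and 51.8 ± 3.78 in HG-OE, and the inhibitors to 349 ± 2.87 and 237 ± 8.70 (mean ± SD, n = 3). Both sums were lower in HG-OE, at 0.721 and 0.680 times the HG-NC value, and at 0.751 and 0.694 times without HG-OE replicate 3. The ratio of inhibitor to subunit transcripts was 5.002, 4.79 and 4.78 in the HG-NC libraries and 4.41, 4.56 and 4.79 in HG-OE, so that the groups overlapped, through HG-OE replicate 3 alone. On the log2 scale the ratio differed by -0.083, by -0.11 without that library, where the groups did not overlap, and by -0.055 without HG-OE replicate 1. When log2 values were averaged over genes in place of summing FPKM, the difference was 0.072, in the opposite direction. The sum is set mostly by NFKBIA, which held 64.7% ± 0.231 of inhibitor FPKM in HG-NC and 63.3% ± 0.832 in HG-OE. These sums are descriptions of the 10 genes and were not tested.

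Partners known to bind each other were then compared as 5 ratios of FPKM within each library, each with an exact two-sided permutation test. The ratio of NFKBIA to RELA was 17.9, 16.9 and 16.8 in HG-NC and 10.8, 11.2 and 10.8 in HG-OE, and that of NFKBIB to RELA was 1.86, 1.63 and 1.62 in HG-NC and 0.988, 0.988 and 1.04 in HG-OE. Both ratios were lower in every HG-OE library, by 0.65 and 0.76 on the log2 scale. The ratio of NFKB1 to RELA, the components of the p50-p65 dimer, moved the most and was 1.202, 1.19 and 1.203 in HG-NC and 0.590, 0.576 and 0.558 in HG-OE. With a log2 difference of -1.06, it was less than 1 in each HG-OE library and above 1 in each HG-NC library. The chosen ratios without RELA did not include NFKB1 to RELB, of which NFKB1 fell more (log2 fold changes -0.98 and -0.69). Those chosen were higher in HG-OE. That of NFKBIE to REL was 16.2, 16.8 and 17.3 in HG-NC and 26.8, 23.0 and 22.2 in HG-OE (log2 difference 0.51), and that of NFKB2 to RELB was 1.85, 2.08 and 1.97 in HG-NC and 2.31, 2.46 and 2.53 in HG-OE (log2 difference 0.31). For all 5 ratios the groups did not overlap, and the exact permutation p was 0.1, before and after adjustment over the 5 pairs. This is the smallest p that 3 libraries against 3 allow. Without HG-OE replicate 3 the log2 differences were -0.65, -0.78, -1.04, 0.57 and 0.28 in the order given.

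**Figure D2:**
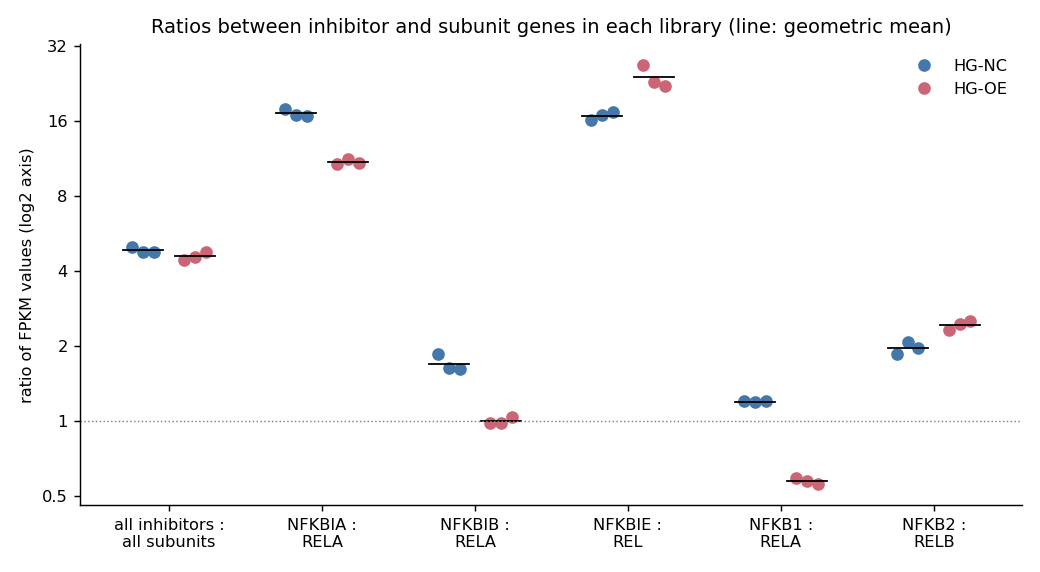
Ratio of FPKM values in each library on a log2 axis, for the summed inhibitors over the summed subunits and for 5 pairs of genes, with HG-NC in blue, HG-OE in red and the geometric mean as a line. The summed ratio overlaps between 4.78 and 4.79, the ratios of NFKBIA, NFKBIB and NFKB1 to RELA lie lower in HG-OE, and those of NFKBIE to REL and NFKB2 to RELB lie higher.

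HG-OE replicate 3, which carried the liver and epithelial transcripts described above, was the lowest HG-OE library in CPM for 9 of the 10 genes, all but NFKBIB. Without this library, 9 genes remained lower at an adjusted p under 0.05 and their log2 fold changes ran from -0.94 for NFKB1 to -0.32 for NFKB2. RELB then had a log2 fold change of -0.59 and RELA one of 0.10. Summed over 11 proximal tubule markers, HG-NC had 747 to 819 and HG-OE 551 to 631 CPM, so that every HG-OE library was lower. Of the markers of other cell types, the liver and endothelial sums were higher in every HG-OE library, whereas the groups overlapped for leukocytes, where HG-OE replicate 3 alone was high, and for fibroblasts. Over 9 liver markers, HG-NC had 266 to 276 and HG-OE 461 to 623 CPM, of which SERPINA1 took most. In HG-OE replicates 1 and 2, ALB had 0 and 1 counts, whereas FGB had 124 and 134, against 24 to 55 in HG-NC. Over 8 leukocyte markers, HG-NC had 6.55 to 6.63 and HG-OE 6.38 to 18.1, with PTPRC at a mean of 1.33 counts per library and no row for MS4A1. Over 4 endothelial markers HG-NC had 0.392 to 0.592 and HG-OE 0.985 to 1.38, with no row for KDR. This sum rests on few counts. VWF had 6 to 7 counts per library in HG-NC and 12 to 33 in HG-OE, whereas CDH5 had 0 to 3 in both groups. Over 5 fibroblast markers HG-NC had 35.6 to 38.9 and HG-OE 31.9 to 36.5. The part of all these markers in the results was not tested.

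Neighbouring genes on a chromosome moved with several members. For each member, the log2 fold changes of other genes with a mean of at least 100 counts within 10 Mb were reduced to their median. It was -0.38 over 54 neighbours of TNFAIP3, -0.31 over 43 neighbours of NFKBIZ, -0.34 over 71 neighbours of REL and -0.27 over 49 neighbours of NFKB1. Removing it left -0.049 for TNFAIP3 and -0.15 for NFKBIZ, so that little of the decrease of TNFAIP3 exceeded that of its region. NFKB1 and REL remained at -0.71 and -0.58. For NFKBIA, whose 44 neighbours had a median of -0.035, the value stayed at -0.54, and NFKBIB, RELB, NFKBIE and NFKB2 lay between -0.56 and -0.45. RELA lies in a region that was higher in HG-OE, with a median of 0.197 over 253 neighbours, and with it removed RELA had a log2 fold change of -0.12. The part of these regional shifts in the results was not tested.

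**Figure D3:**
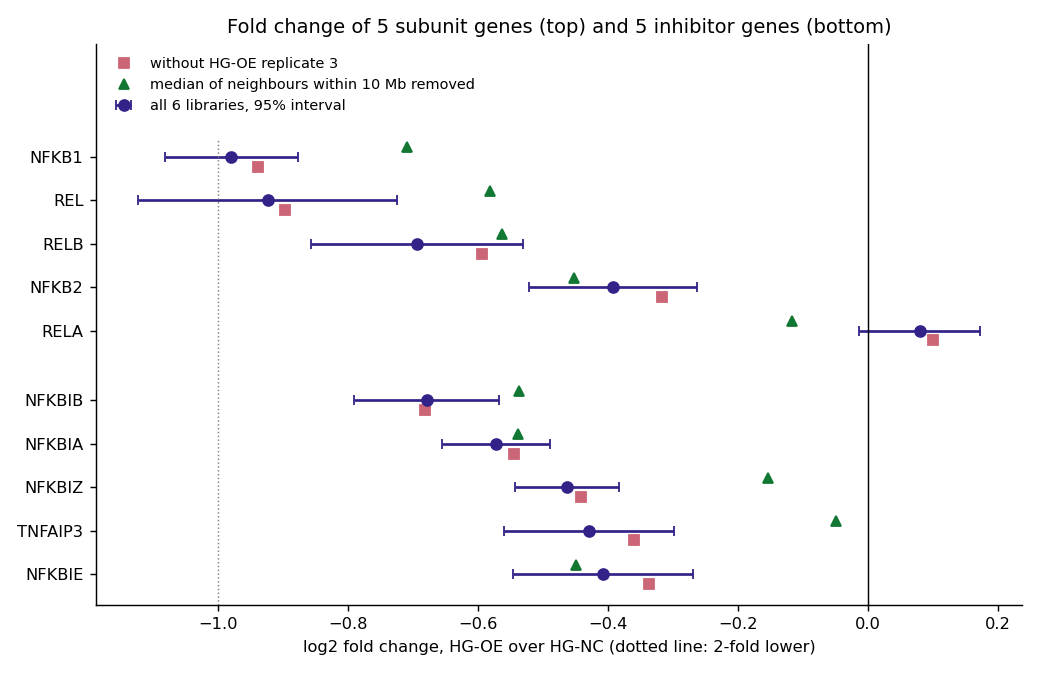
Log2 fold change of HG-OE over HG-NC for the subunits (top) and the inhibitors (bottom), with 95% intervals from edgeR (circles), without HG-OE replicate 3 (squares) and with the median of neighbours within 10 Mb removed (triangles). NFKB1 and REL lie closest to the dotted line of a 2-fold decrease, and the triangles of TNFAIP3 and NFKBIZ lie near 0, at -0.049 and -0.15.

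Other genes of the pathway were read from lists by role. In most of these lists, genes differed in both directions. The same held over all genes tested, 25.9% being lower and 25.9% higher at an adjusted p under 0.05 (edgeR). All genes named from the lists below passed an adjusted p under 0.05 by edgeR's test. Among 13 tested negative regulators outside the members, 5 were lower and 4 higher at the same threshold, with a median log2 fold change of -0.072. TNIP1, which encodes an A20-binding protein, rose (53.1 ± 1.26 FPKM in HG-NC, 65.5 ± 5.54 in HG-OE, log2 fold change 0.32), and so did ZC3H12A (0.23), which encodes the mRNA-degrading enzyme regnase-1. CYLD, a deubiquitinase that limits IKK activation, fell by 0.39 on the log2 scale and COMMD1 by 0.35. Of 6 genes for IKK-type kinases and their scaffolds, 3 were lower and 1 higher. The catalytic subunits CHUK (IKK-alpha) and IKBKB (IKK-beta) fell by 0.33 and 0.34. IKBKE, an IKK-related kinase of the interferon response, rose from 1.02 ± 0.157 to 2.48 ± 0.0850 FPKM (log2 fold change 1.29, standard error 0.123, adjusted p = 1.42e-06, edgeR). It was called at 2-fold.

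Among 16 adaptors and kinases upstream of IKK, 7 were lower and 4 higher, with a median of -0.092. BIRC3 (cIAP2), a ubiquitin ligase of the TNF receptor complex and itself an NF-kB target, fell from 20.6 ± 0.478 to 9.24 ± 1.24 FPKM (log2 fold change -1.14, standard error 0.0688, adjusted p = 2.22e-08, edgeR). TAB2, an adaptor of the TAK1 kinase, fell by 0.84, whereas SHARPIN, a subunit of the linear ubiquitin ligase, rose by 0.65 and TAB1 by 0.31. Of 8 ubiquitin enzymes, among them the SCF ligase that marks phosphorylated IkB proteins, 5 were higher and 2 lower, with a median of 0.35, which was 0.050 with the median of neighbours removed. RBX1, the RING subunit of that ligase, rose by 0.497, and UBE2V1 by 0.42. UBE2D3 and UBE2N, both E2 enzymes, fell by 0.34 and 0.10. Of 10 nuclear cofactors, 5 were lower and 3 higher, with a median of -0.11. The kinase gene RPS6KA5 fell by 0.39 on the log2 scale, while the deacetylase gene HDAC3 rose by 0.46 and RPS6KA4 by 0.53. With the median of neighbours removed, TNIP1, COMMD1, TAB1, UBE2D3 and UBE2N lay near 0, at -0.049, -0.060, 0.012, -0.063 and 0.0036. The rises of HDAC3, RBX1, RPS6KA4, UBE2V1 and SHARPIN were reduced to 0.15, 0.17, 0.33, 0.29 and 0.44, that of ZC3H12A to 0.17 and the fall of TAB2 to -0.40. Larger values remained for IKBKE (1.39) and BIRC3 (-1.15), and RPS6KA5 stood at -0.58. CYLD, CHUK and IKBKB stood at -0.35, -0.37 and -0.35.

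Of these lists, the lowest median was that of 19 known NF-kB target genes, of which 18 passed the low-count filter. Of these, 16 were lower and none was higher in HG-OE by edgeR's test, 7 of the 16 by at least 2-fold, with a median log2 fold change of -0.86. Over all genes tested, 25.9% were lower, and 2.13% were lower by at least 2-fold. The largest decreases among the target genes were those of the chemokine genes CCL2 (65.2 ± 2.06 FPKM in HG-NC, 9.17 ± 1.04 in HG-OE) and CXCL3 (87.2 ± 2.05 and 17.05 ± 2.74). Their log2 fold changes were -2.82 and -2.34, against -0.98 for NFKB1. The median was -0.83 when HG-OE replicate 3 was left out, and -0.82 over 17 genes with the median of neighbours removed. For the other 5 lists, leaving out this library gave medians of -0.069 (negative regulators), -0.16 (IKK kinases), -0.067 (upstream adaptors), 0.34 (ubiquitin enzymes) and -0.13 (nuclear cofactors). The list was chosen with results of these libraries known, and its direction is not independent evidence.

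**Figure D4:**
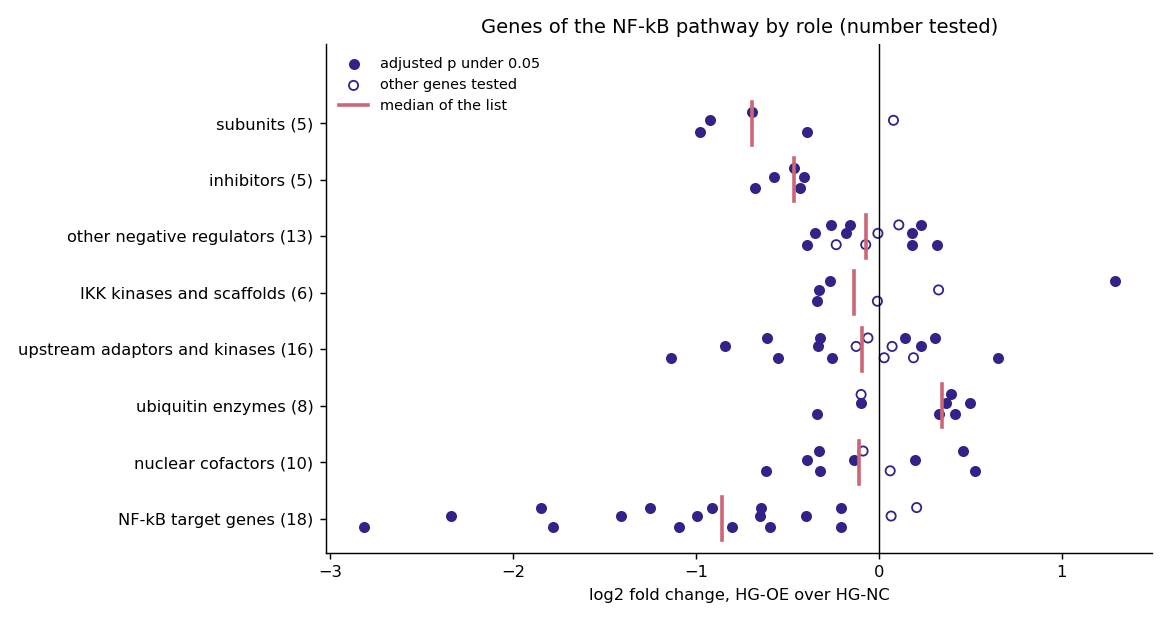
Log2 fold change of HG-OE over HG-NC for the genes of each list that passed the low-count filter, with filled circles for an adjusted p under 0.05, open circles for the other genes tested and a red line at the median of the list. Subunits, inhibitors and NF-kB target genes lie mostly to the left, with medians of -0.69, -0.46 and -0.86, the ubiquitin enzymes mostly to the right (median 0.35, and 0.050 with neighbours removed), and the other lists lie on both sides of 0.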

How the data were processed

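RNA-seq was available for 6 libraries. The authors trimmed reads with FASTX-Toolkit, used HISAT2 with GRCh38 as the genome, and kept uniquely mapped reads for counting per gene. The deposited counts are whole numbers and are not scaled to a common library size. A deposited FPKM table, given to 2 decimals, was made by the authors from the same reads. The annotation and the counting tool are not given in the sources used here. The study names ComBat_seq for batch correction, and whether it entered these tables is not stated. The libraries had 25507595 to 29444841 counts.

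The main test on counts was that of edgeR 4.0.16 under R 4.3.3 (TMM, default low-count filter, quasi-likelihood test, Benjamini-Hochberg adjustment), and the fit was tested on simulated data. The alternatives used DESeq2 1.42.0 and limma 3.58.1 on log2(FPKM + 1) or log2(FPKM + 0.1), other filters and scalings, the replicate number as a block, and each library left out in turn. The removal of neighbours from the pathway lists and the sums without HG-OE replicate 3 were chosen after seeing the data. Positions are from GENCODE on GRCh38. The 10 genes and all lists were chosen with earlier results of these data known. From each list of other pathway genes, the 2 largest rises and the 2 largest falls with a mean of at least 100 counts and an adjusted p under 0.05 were named. A gene that this rule names among the nuclear cofactors is not reported here. SOD2 had no position and no neighbour value.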

Additional observations from a re-analysis of the deposited data

How the results depend on the processing

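In every alternative that refitted the test across genes, 9 of the 10 genes were lower in HG-OE and none was higher at an adjusted p under 0.05. The number of members called at 2-fold was 0 to 1 with each library left out in turn. NFKB1 was the 1 gene, called without HG-NC replicate 1 or without HG-OE replicate 1. Removing the median of the neighbours turned the log2 fold change of RELA to -0.12. Averaging log2(FPKM) over genes turned the log2 difference of the inhibitor to subunit ratio to 0.072, and the cause was not tested. The pair ratios kept their direction with each library left out and with CPM.

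Over all genes, 997 were called at 2-fold, against 1539 with no low-count filter, 617 with at least 10 counts in every library, 144 with limma on log2(FPKM + 1) and 138 with limma without a filter on low values. The fold changes of low genes are smaller on that FPKM scale by construction, which also gave REL its smallest decrease, -0.39.

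The deviations of same-numbered libraries from their group means correlated at -0.027, 0.030 and -0.00099 over the genes tested. Whether the replicate numbers pair the libraries is not given. With 3 libraries per group, these correlations cannot decide it. With the replicate number as a block, 9 members were lower and 8849 genes were called at an adjusted p under 0.05, against 8887 without it. No call on a member changed.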
